A study of Mus musculus with 15 samples.

Results

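The comparison described here is that of wild-type mice given nicotine with wild-type mice given water, read from the cortex at the front of the brain. It used 8 of the 15 RNA-seq libraries of the study, 4 labelled WT-N and 4 labelled WT-B, and the 12283 autosomal genes that reached 1 FPKM (fragments scaled to transcript length and library size) in at least 3 of the 15 libraries. The files held 21878 rows, of which 20512 were autosomal. Of the tested autosomal genes, 468 reached that level in fewer than 3 of the 8 wild-type libraries and so needed knockout libraries to pass. Both groups were wildtype C57BL6/J. Mice were 8 months old at the start and drank freely for 3 months, nicotine at 100 µg/ml in one group and water in the other. Tissue was taken after behaviour tests. The other 7 libraries came from conditional Presenilin 1/2 double knockout mice (DKO), 3 on the same nicotine dose and 4 on water. They entered the fit so that all groups shared 1 estimate of the spread, and they give values beside the wild-type ones. The labels give neither the sex of the mice nor the cells in which the knockout was made, and do not say whether every library had its own mouse. The p-values therefore rest on library-to-library spread that may be technical.

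Nicotine opens the nicotinic acetylcholine receptors, ion channels built as rings of alpha and beta subunits that acetylcholine normally opens. In cortex the common forms carry alpha4 and beta2 subunits or alpha7 alone, and they sit on neurons, on nerve endings and, at lower levels, on glia and vessel cells. Prolonged exposure is known to desensitise these receptors and to raise their number at the protein level, largely without a change in their transcripts.

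Reads in genes numbered 17901284 to 19469215 in the 8 wild-type libraries, and 1 FPKM of the median gene stood on 66 reads. Values below are FPKM per library in the order of replicate numbers 1 to 4. Folds are ratios of mean FPKM, and log2 changes are differences of mean log2(FPKM + 1), nicotine minus water, a scale that shrinks the changes of weakly expressed genes. The targeted gene Psen2, which the knockout removes, was at 6.48 ± 0.571 FPKM (SD, n = 4) with nicotine and 6.43 ± 0.77 (SD, n = 4) with water, a log2 change of 0.01 (SE 0.08, adjusted p = 0.984). The first principal component of the 8 libraries held 21.4% of their variance and separated the groups, and the second held 19.6%.

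The wild-type groups also differed on the sex chromosomes. The 4 tested Y-linked genes, namely Uty, Kdm5d, Ddx3y and Eif2s3y, summed to 28.9 to 33 FPKM in the water libraries and to 0.0909 to 0.144 FPKM in the nicotine libraries. Of 6 X-linked genes known to escape inactivation, Eif2s3x and Kdm6a passed the test, both higher with nicotine, by 0.57 (SE 0.09, adjusted p = 0.00686) and 0.36 (SE 0.07, adjusted p = 0.0296) on the log2 scale. Kdm6a lost its call without nicotine replicate 1, 2 or 3 (adjusted p = 0.0808, 0.0788 and 0.0879), without water replicate 1 or 2 (0.09 and 0.101), with a replicate block (0.0674) and with no filter (0.0702). Among the DKO libraries, replicate 2 of nicotine also had Y-linked genes near 0, with Ddx3y at 0.0989 FPKM against 12.9 and 13.1 in the other nicotine libraries. Since no wild-type nicotine library carried Y-linked transcripts and every wild-type water library did, nicotine and whatever sets the Y-linked difference cannot be told apart, and each difference below is one between groups.

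Differences between the groups were few. A gene is called here when its Benjamini-Hochberg adjusted p in limma was under 0.05 over all 12728 tested genes. By that rule 16 autosomal genes, 0.13% of those tested, were called, 10 higher with nicotine (0.0814%) and 6 lower (0.0488%). The median log2 change of all tested autosomal genes was 0.00134, and 4 genes, called or not, had a log2 change over 1 in size. An unadjusted p under 0.05 was found for 1068 genes (8.69%), 4.85% higher and 3.84% lower, and 710 genes (5.78%) had no overlap between the groups, 3.1% higher and 2.68% lower. These shares are the background for the counts of gene groups that follow. The groups were chosen with earlier results of these data known, so a larger share in a group is a description and not a test. The 10 higher genes were the transcription factors Klf4, Klf2 and Bhlhe41, the mitochondrial carrier gene Ucp2, the GTPase gene Gimap6, the purine enzyme gene Xdh, the glucose transporter gene Slc2a1, the endothelial surface protein gene Ly6c1, and Jsrp1 and D430019H16Rik. The 6 lower genes were the protease inhibitor gene Serpinb6a, the GABA-A receptor subunit gene Gabra2, the activity-regulated factor Npas4, and Mex3b, Rprm and Dpm3. Genes to which the deposited tables assign a transcription factor family made up 3 of the 16 called genes (18.8%) and 6.74% of the tested autosomal genes. In bulk tissue, fewer cells of a type and less RNA per cell cannot be told apart.

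**Figure D1:**
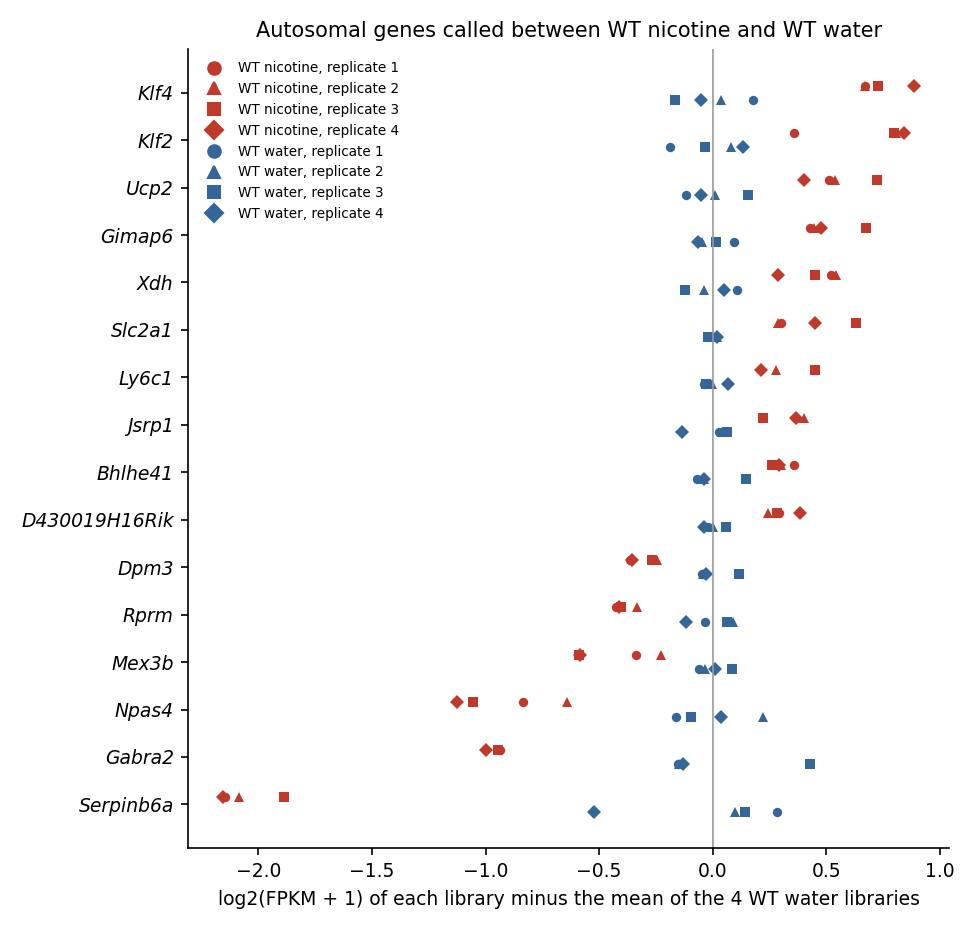
Each point is 1 wild-type library, placed by its log2(FPKM + 1) minus the mean of the 4 water libraries, for the 16 called autosomal genes. Red symbols are nicotine and blue symbols water, and the symbol's shape gives the replicate number; in all 16 genes the 4 red points lie on one side of the 4 blue points.

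The promoters of 4 genes are shown, those of both called Kruppel-like factors, of the called clock repressor and of the clock repressor with the largest change in the DKO. Each line gives the 250 bases before the RefSeq start site (GRCm38.p6, written 5′ to 3′ on the gene's strand), with E-boxes (CACGTG, the site of clock activators) and matches to the core motif of MEF2, an activity-dependent factor, in capitals. Klf4 is at chr4:55532476-55532725, minus strand. Klf2 is at chr8:72318812-72319061, plus strand. Bhlhe41 is at chr6:145865421-145865670, minus strand. Ciart is at chr3:95882229-95882478, minus strand.
Klf4: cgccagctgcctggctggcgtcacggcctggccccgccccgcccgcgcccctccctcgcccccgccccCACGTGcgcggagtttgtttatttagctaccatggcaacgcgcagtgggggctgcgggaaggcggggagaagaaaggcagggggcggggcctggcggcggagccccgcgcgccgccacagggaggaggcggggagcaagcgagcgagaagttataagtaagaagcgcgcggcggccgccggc
Klf2: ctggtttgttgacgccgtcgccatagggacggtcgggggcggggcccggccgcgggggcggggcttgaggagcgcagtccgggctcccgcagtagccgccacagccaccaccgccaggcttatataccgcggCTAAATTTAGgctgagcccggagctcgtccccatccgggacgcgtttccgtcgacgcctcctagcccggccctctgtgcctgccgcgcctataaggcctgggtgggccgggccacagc
Bhlhe41: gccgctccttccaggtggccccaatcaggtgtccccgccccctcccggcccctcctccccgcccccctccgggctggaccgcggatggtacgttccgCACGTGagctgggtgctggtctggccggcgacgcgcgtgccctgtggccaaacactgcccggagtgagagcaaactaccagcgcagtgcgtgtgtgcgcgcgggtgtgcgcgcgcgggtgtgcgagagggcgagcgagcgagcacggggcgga
Ciart: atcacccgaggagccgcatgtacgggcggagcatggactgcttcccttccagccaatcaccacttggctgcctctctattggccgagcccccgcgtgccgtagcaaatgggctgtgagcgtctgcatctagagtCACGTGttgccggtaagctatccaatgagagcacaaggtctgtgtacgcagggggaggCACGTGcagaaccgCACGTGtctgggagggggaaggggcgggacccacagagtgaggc
Over windows from 250 bases before to 50 after the start, read on both strands, Klf4 and Bhlhe41 held 1 E-box each, Ciart held 3, and Klf2 held 1 MEF2 match and no E-box. Of 27025 RefSeq promoters of that length, 7.24% held an E-box and 3.7% a MEF2 match. The cAMP response element TGACGTCA (1.88% of promoters), the D-box TTANGTAA (2.34%) and the CACCC box CCACACCC (3.57%) were also searched and matched none of the 4, and the GC box GGGCGG (35.9%) matched all 4. Among other clock genes read over such windows, Per3, Nr1d2, Cry2, Nr1d1, Nfil3 and Dbp held no E-box. Cry1, Tef and 1 window of Per1 held 1. Of the other called genes whose windows were read, D430019H16Rik held 1 E-box. No E-box was found for Serpinb6a, Gabra2, Npas4, Rprm, Ucp2, Gimap6, Dpm3, Slc2a1, Ly6c1 and Mex3b. All of these are matches of letters, and binding was not measured.

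Klf4 and Klf2, zinc-finger factors known from vessel linings as factors induced by blood flow, were the called genes with the largest rises on the log2 scale. Klf4 (gene 16600, chromosome 4, 55527137 to 55532475) was at 3.62, 3.62, 3.8 and 4.37 FPKM in the nicotine libraries and at 2.28, 1.98, 1.59 and 1.8 in the water libraries. The 2 ranges were far apart, with the highest water library below the lowest nicotine library. Its mean rose 2.01-fold, from 1.91 ± 0.293 FPKM with water to 3.85 ± 0.356 with nicotine (SD, n = 4 each). On the log2 scale this was 0.74 (SE 0.08, 95% interval 0.56 to 0.92, adjusted p = 0.000529). Klf2 (gene 16598, chromosome 8, 72319062 to 72321654) was at 7.66, 10.8, 10.7 and 11.1 FPKM with nicotine and at 4.93, 6.15, 5.6 and 6.41 with water. Nicotine replicate 1 lay well below the other nicotine libraries yet above every water library. The mean of Klf2 rose 1.74-fold, by 0.70 on the log2 scale (SE 0.11, adjusted p = 0.00913).

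The other Kruppel-like factors were not called. Of 13 tested autosomal members of the family, 2 were called, both higher, and 8 of 13 had a higher mean with nicotine, with a median log2 change of 0.0225. Klf11 had an unadjusted p of 0.0498, with means of 2.26 FPKM with nicotine and 2.66 with water (adjusted p = 0.574), a p that did not stay under 0.05 without nicotine replicate 1 or any one water library. Klf9, which responds to glucocorticoids and thyroid hormone, was the most abundant member at 60.9 ± 5.19 FPKM with nicotine and 56.2 ± 3.94 with water (adjusted p = 0.659). The log2 change was 0.08 for Klf3, 0.06 for Klf13, 0.03 for Klf15, 0.02 for Klf16 and 0.01 for Klf6. It was -0.15 for Klf5, -0.09 for Klf10, and -0.02 for both Klf7 and Klf12. None of these 9 had an adjusted p under 0.667.

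Genes of brain endothelium, the cells that line vessels and form the blood-brain barrier, lay mostly higher with nicotine. Of 33 tested autosomal members of the endothelial and barrier list, 2 were called, both higher, and 12 (36.4%, against 4.85% of all genes) were higher at an unadjusted p under 0.05 and 0 lower. The groups did not overlap for 11 of the 33, all higher, and 28 of 33 had a higher mean, with a median log2 change of 0.138. Slc2a1 (gene 20525, chromosome 4, 119108745 to 119137330), which encodes the glucose transporter GLUT1 of the barrier and of astrocytes, was at 40.3, 40.0, 50.9 and 44.8 FPKM with nicotine and between 32.1 and 33 in all water libraries. It rose by 0.42 (SE 0.07, adjusted p = 0.0102), and its span overlaps 2 long noncoding RNA models whose reads could be mixed with its own. Ly6c1 (gene 17067, chromosome 15, 75044018 to 75048920), an endothelial surface protein gene whose family holds near-identical copies so that its reads are uncertain, was at 18.7, 16.5, 18.7 and 15.7 FPKM with nicotine and 13.1 to 14.1 with water. It rose by 0.35 (SE 0.06, adjusted p = 0.03). Ly6c1 lost its call without replicate 1 or 3 of nicotine (adjusted p = 0.101 and 0.135) or without replicate 1, 2, 3 or 4 of water (adjusted p = 0.105, 0.0895, 0.0909 and 0.0508), with a replicate block (0.103), with limma voom on recovered reads (0.0562), with no filter (0.071) and with no intensity trend (0.0616).

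Barrier transport genes were among the higher members. Mfsd2a, the barrier's lipid carrier, was at 8.96 ± 0.927 FPKM with nicotine and 6.52 ± 0.577 with water (SD, n = 4 each, log2 change 0.40, adjusted p = 0.205). Adgrl4, an endothelial adhesion receptor gene, was at 5.94 ± 0.515 and 4.57 ± 0.262 FPKM, without overlap (log2 change 0.31, adjusted p = 0.141). Ly6a was at 19.8 ± 2.25 and 16.2 ± 1.39 FPKM (log2 change 0.27, adjusted p = 0.265). These 3 genes were not called. The cell type's defining genes Pecam1, Cdh5, Flt1 and Cldn5 did not reach an unadjusted p of 0.05. Pecam1 was at 5.91 ± 0.606 and 5.94 ± 0.248 FPKM (log2 change -0.01, adjusted p = 0.983) and Cdh5, the adherens junction cadherin of vessels, at 4.5 ± 0.554 and 4.3 ± 0.0854 (log2 change 0.05, adjusted p = 0.932), with nicotine replicate 4 at 3.68 and the other nicotine libraries at 4.69 to 4.84. Flt1 had a log2 change of 0.06 (adjusted p = 0.895), and Cldn5, the main tight junction claudin of brain vessels, had means of 16.3 ± 1.9 FPKM with nicotine and 18.8 ± 1.73 with water (log2 change -0.19, adjusted p = 0.707). Summed over the list, the nicotine libraries held 576 to 641 FPKM and the water libraries 569 to 598, ranges that overlap. Astrocyte markers lay higher beside them, with 19 of 20 means higher, 6 (30%) at an unadjusted p under 0.05, and sums of 2728 to 3034 FPKM with nicotine and 2593 to 2865 with water; their part in the endothelial values was not tested.

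Klf2 and Klf4 also head a list of 15 tested genes known to respond to blood flow, and the list was drawn up with their rise known. Besides these 2 genes, 3 of the other 13 members were higher at an unadjusted p under 0.05, 0 lower and 0 called. They were Timp3, a matrix protease inhibitor gene, at 26.3 ± 0.693 and 22.9 ± 0.694 FPKM without overlap (adjusted p = 0.141), Vcam1, a leukocyte adhesion molecule gene, at 8.12 ± 0.936 and 6.63 ± 0.425 (adjusted p = 0.35), and S1pr1, a sphingolipid receptor gene, at 55.2 ± 3.75 and 48.7 ± 2.83 (adjusted p = 0.454). Nos3, the endothelial nitric oxide synthase gene and a classical target of Klf2, was at 2.78 ± 0.305 with nicotine and 2.78 ± 0.119 with water (adjusted p = 0.998). Of 15 mural cell genes, which mark pericytes and smooth muscle, 0 were higher and 1 lower at that p, and 0 were lower without nicotine replicate 2, 3 or 4, without any one water library or with a replicate block.

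**Figure D2:**
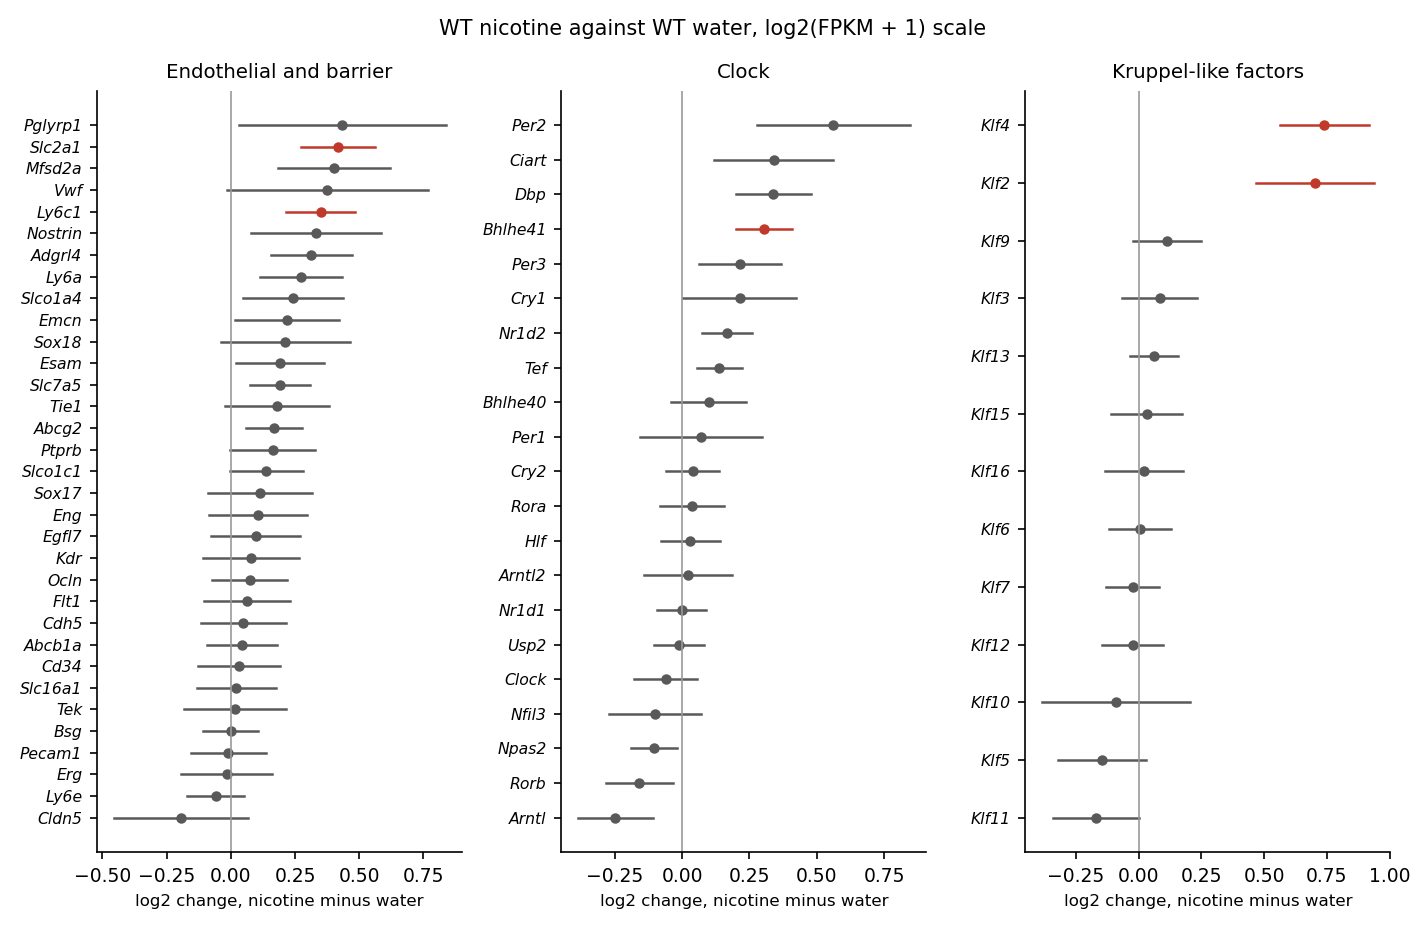
Points are log2 changes, nicotine minus water, and bars their 95% intervals for tested autosomal members of the endothelial and barrier list, both clock lists and the Kruppel-like factors. Red marks an adjusted p under 0.05; 28 of the 33 endothelial points and 12 of their intervals lie right of 0, and only Klf4 and Klf2 stand apart among the Kruppel-like factors.

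Ucp2, Gimap6 and Xdh rose in all 4 nicotine libraries. Ucp2 (gene 22228, chromosome 7, 100493337 to 100499629), an inner-membrane carrier of mitochondria found in microglia, vessels and some neurons, was at 10.7, 11, 12.6 and 9.88 FPKM with nicotine and 6.58, 7.29, 8.17 and 6.92 with water. The lowest nicotine library lay above the highest water library, and the log2 change was 0.54 (SE 0.08, adjusted p = 0.00562). Of 20 mitochondrial carrier and redox genes 3 were higher at an unadjusted p under 0.05 and 0 lower, with a median of -0.00899, and the count was 1 without nicotine replicate 4 or water replicate 4. Gimap6 (gene 231931, chromosome 6, 48701583 to 48708244), a GTPase gene of lymphocytes and endothelium, was at 2.25, 2.29, 2.85 and 2.35 FPKM with nicotine and 1.31 to 1.58 with water. It rose 1.72-fold, by 0.51 on the log2 scale (SE 0.08, adjusted p = 0.00765), on 38 to 83 reads per library. The other 7 genes of its family did not reach the filter. With limma voom on recovered reads Gimap6 missed the threshold (adjusted p = 0.0562). Xdh (gene 22436, chromosome 17, 73883895 to 73950397), which encodes the xanthine-oxidising enzyme of purine breakdown, was at 3.06, 3.12, 2.87 and 2.45 FPKM with nicotine and 1.6 to 2.05 with water. Its log2 change was 0.45 (SE 0.08, adjusted p = 0.0131). Xdh lost its call without replicate 1, 2 or 3 of nicotine (adjusted p = 0.0547, 0.0571 and 0.0512) and without replicate 2 or 3 of water (0.057 and 0.058). Among 9 purine enzymes tested, 1, Xdh itself, was higher at an unadjusted p under 0.05 and 0 were lower. The count of higher enzymes was 2 without nicotine replicate 1 or 3 or water replicate 1 or 3, and 3 without nicotine replicate 2.

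Clock repressors, the genes that close the daily feedback loop by shutting off the Clock and Bmal1 pair, lay higher with nicotine. Of 11 tested members 1 was called, 6 (54.5%) were higher at an unadjusted p under 0.05 and 0 lower, 5 without overlap, with a median log2 change of 0.168. Bhlhe41 (gene 79362, chromosome 6, 145858243 to 145865420), which encodes the repressor DEC2, was at 11.3, 10.8, 10.5 and 10.7 FPKM with nicotine and 8.13, 8.33, 9.6 and 8.32 with water. The nicotine libraries lay close together and above the water libraries, of which replicate 3 was the highest. Bhlhe41 rose by 0.30 (SE 0.05, adjusted p = 0.0102). Its adjusted p was 0.0517 without nicotine replicate 1, 0.0508 without water replicate 4 and 0.0601 with the 8 wild-type libraries alone.

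The other repressors were not called. Per2, a core repressor, was at 11, 7.92, 10.7 and 10.5 FPKM with nicotine and 5.78, 6.32, 6.86 and 6.81 with water, without overlap (log2 change 0.56, SE 0.13, adjusted p = 0.151, and 0.0313 with the 8 wild-type libraries alone). Ciart, which encodes the repressor Chrono, was at 10.3, 11.6, 12.9 and 13.2 FPKM against 9.05, 8.11, 10.2 and 9.7 (log2 change 0.34, adjusted p = 0.342). The lowest Ciart value with nicotine and the highest with water were nearly equal. Nr1d2, a nuclear receptor of the loop, was at 33.4 ± 0.594 and 29.6 ± 1.14 FPKM (SD, n = 4 each, adjusted p = 0.22). Per3 was at 6.52 ± 0.654 and 5.46 ± 0.269 (adjusted p = 0.406) and Cry1 at 6.77 ± 0.473 and 5.7 ± 0.504 (adjusted p = 0.556). Per1, Cry2, Bhlhe40, Nfil3 and Nr1d1 had log2 changes of 0.07, 0.04, 0.10, -0.10 and -0.00, with adjusted p of 0.72 or more. Per1 is also an activity gene, and its nicotine replicates 3 and 4, at 20.5 and 21 FPKM, lay above replicates 1 and 2, at 15.5 and 13.9.

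Clock activators and outputs went both ways. Of 10 tested, 2 were higher and 3 lower at an unadjusted p under 0.05, and 0 were called. Dbp, a bZIP output factor switched on through E-boxes, was at 46.2 ± 2.53 FPKM with nicotine and 36.4 ± 2.19 with water, without overlap (log2 change 0.34, adjusted p = 0.0502), and its relative Tef at 80.5 ± 1.25 and 73 ± 1.58 (adjusted p = 0.288). Arntl, which encodes the activator BMAL1, was at 5.16 ± 0.491 and 6.29 ± 0.285 FPKM, without overlap on the low side (log2 change -0.25, adjusted p = 0.23). Npas2, a partner of BMAL1, was at 11.2 ± 0.435 and 12.1 ± 0.481 (log2 change -0.10, adjusted p = 0.479). Rorb, a nuclear receptor that also marks neurons of the middle layers, had a log2 change of -0.16 (adjusted p = 0.473). The hour at which tissue was taken is not given in the labels.

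Activity-regulated genes, which neurons switch on within minutes to hours of firing, lay mostly lower with nicotine in the Egr, Nr4a and Arc and the AP-1 lists but not among secreted factors, and the 4 nicotine libraries did not do so alike. Npas4 (gene 225872, chromosome 19, 4984353 to 5003439), a factor that shapes inhibitory synapses after activity, was the called member. It was at 3.36, 3.99, 2.74 and 2.56 FPKM with nicotine and 5.96, 8.07, 6.27 and 6.98 with water. All 4 nicotine libraries lay below the water range, replicates 3 and 4 lowest. Npas4 fell 2.15-fold, by 0.91 on the log2 scale (SE 0.12, 95% interval -1.17 to -0.66, adjusted p = 0.00266).

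The Egr, Nr4a and Arc list had 22 tested members, of which 1 was called, lower, and 8 (36.4%, against 3.84% of all genes) were lower at an unadjusted p under 0.05 and 0 higher, with a median log2 change of -0.166. Ier2, an immediate early gene, was at 3.9, 6.68, 6.48 and 6.63 FPKM with nicotine and 9.47, 10.6, 7.76 and 10.9 with water, without overlap (log2 change -0.64, SE 0.16, adjusted p = 0.205). Btg2, an antiproliferative early gene, was at 3.54, 7.83, 8.51 and 8.68 against 10.4, 11.5, 12 and 14.9 FPKM (log2 change -0.75, adjusted p = 0.25). Replicate 1 of nicotine was lowest in both genes. Nr4a1, a nuclear receptor of the early response, was at 13.8, 15.6, 28.9 and 28.7 FPKM with nicotine and 27.4 to 38.6 with water (log2 change -0.63, adjusted p = 0.395), and Arc, whose product trims glutamate receptors at synapses, at 28.9, 47.9, 90.1 and 79.9 against 85.9 to 120.2 (log2 change -0.87, SE 0.34, adjusted p = 0.493). In Nr4a1 and Arc replicates 3 and 4 of nicotine lay near the lowest water library and replicates 1 and 2 far below it. Egr1, a zinc-finger early gene, was at 109 ± 22.9 and 134 ± 12.8 FPKM (SD, n = 4 each, adjusted p = 0.627).

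Of 8 AP-1 genes 3 were lower at an unadjusted p under 0.05, 0 higher and 0 called. Junb was at 25.9, 29.4, 45.6 and 44.9 FPKM with nicotine and 54.3 to 62.7 with water, without overlap (log2 change -0.68, SE 0.16, adjusted p = 0.141). Fos was at 8.5, 12.4, 20.2 and 19.9 FPKM against 21.5, 22.3, 23 and 28.3 (log2 change -0.68, SE 0.25, adjusted p = 0.47). Jund was at 42.2 ± 2.28 and 47.4 ± 2.7 FPKM (adjusted p = 0.545). Of 16 MAPK phosphatase and Sprouty genes, which damp growth factor signalling, 1 was higher and 2 lower at that p; Dusp1 was at 11.2, 20.5, 24.5 and 27.7 FPKM against 29.8 to 40.3, without overlap (log2 change -0.78, adjusted p = 0.23). Of 15 activity-regulated secreted factors 2 were lower at that p, while 9 had a higher mean, with a median log2 change of 0.0229, and Bdnf, the neurotrophin, was at 3.37 ± 0.447 and 3.54 ± 0.212 FPKM (adjusted p = 0.895).

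Leaving out single libraries moved these counts. Without nicotine replicate 1 the Egr, Nr4a and Arc count was 5 lower, without nicotine replicate 2 it was 5 lower and 2 higher, and without water replicate 4 it was 4 lower. Without both nicotine replicates 1 and 2, a choice made after seeing the data, it was 4 lower and 6 higher, and the AP-1 count was 1 lower and 1 higher. The AP-1 count was 1 lower without nicotine replicate 1 alone. The count of lower secreted factors was 1 without nicotine replicate 1 or 4 or water replicate 2 or 4. Among MAPK phosphatase and Sprouty genes 1 was lower and 2 higher without nicotine replicate 1, 4 were lower without nicotine replicate 3, and 0 were higher without nicotine replicate 4 or water replicate 1 or 2. Npas4 kept its call in each of these fits.

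**Figure D3:**
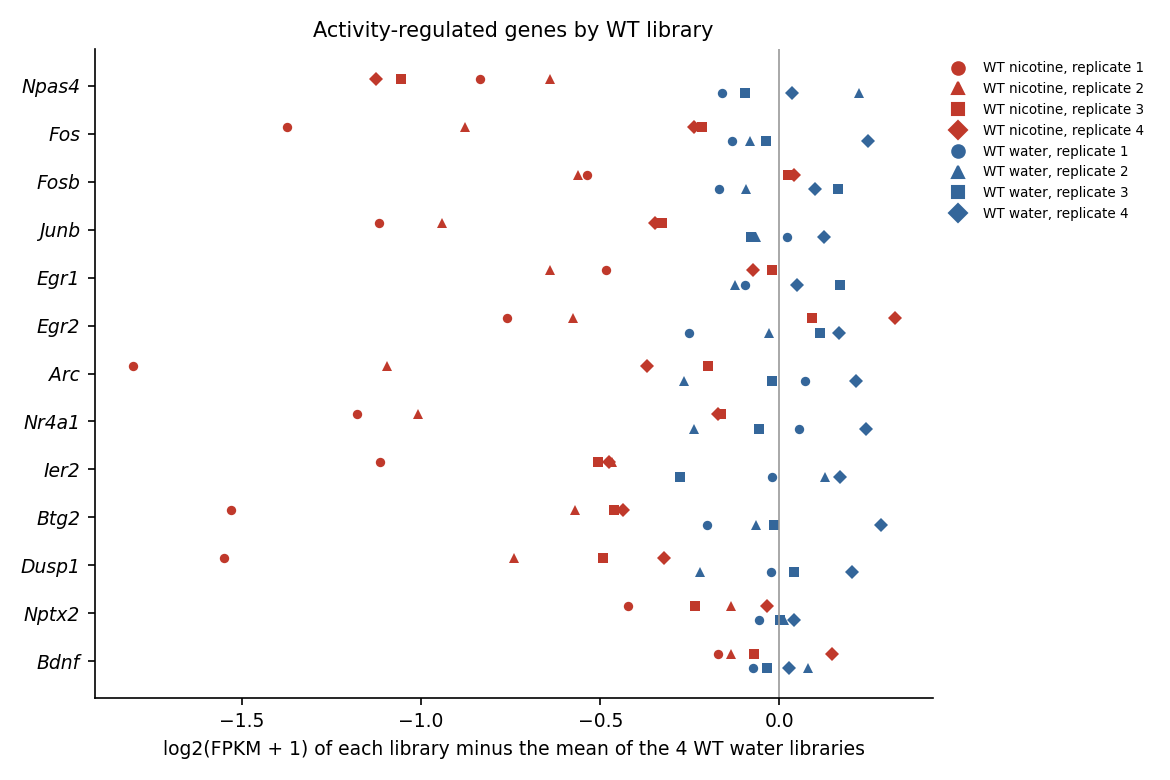
Each point is 1 wild-type library, placed by its log2(FPKM + 1) minus the mean of the 4 water libraries, for 13 activity-regulated genes, with nicotine in red, water in blue and the replicate number given by the shape. Nicotine replicates 1 and 2 lie farthest left for Fos, Junb, Arc and Nr4a1, whereas for Npas4 replicates 3 and 4 do.

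On the log2 scale Serpinb6a and Gabra2 had the largest falls among the called genes. Gabra2 (gene 14395, chromosome 5, 70958392 to 71095849) encodes the alpha2 subunit of the GABA-A receptor, the chloride channel of fast inhibition. It was at 9.78, 9.72, 9.69 and 9.32 FPKM with nicotine and 17.6, 17.6, 26.8 and 17.8 with water. The nicotine libraries lay within a narrow band, and water replicate 3 lay far above the other water libraries. Gabra2 fell 2.07-fold, by 0.96 on the log2 scale (SE 0.10, 95% interval -1.17 to -0.75, adjusted p = 0.000222). Of 11 tested autosomal GABA-A subunits it was the called one, and 1 was higher and 2 lower at an unadjusted p under 0.05, with a median of -0.0136. The higher count was 0 without nicotine replicate 2 or 3 or water replicate 2, 3 or 4, and the lower count was 1 without nicotine replicate 1 or water replicate 3. Gabra5, of extrasynaptic receptors, was at 19.98 ± 1.26 and 22.4 ± 1.82 FPKM (log2 change -0.16, adjusted p = 0.47). Gabra4, the next gene along the chromosome, was at 34.3 ± 1.29 and 32.1 ± 0.79 (log2 change 0.09, adjusted p = 0.542). Gabrb1, Gabrb2, Gabrg1, Gabrg3 and Gabrd had log2 changes of -0.05 to 0.10. None of 12 genes of GABA synthesis, transport and GABA-B receptors reached an unadjusted p of 0.05.

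Serpinb6a (gene 20719, chromosome 13, 33917918 to 34002794), an inhibitor of serine proteases inside cells, was at 2.1, 2.23, 2.71 and 2.08 FPKM with nicotine and 15.7, 13.7, 14.1 and 8.55 with water. Every nicotine library was far below every water library, and water replicate 4 was the lowest of its group. Serpinb6a fell 5.71-fold, by 2.07 on the log2 scale (SE 0.13, 95% interval -2.35 to -1.78, adjusted p = 4.25e-07). Its span overlaps Nqo2, Ripk1 and a noncoding model. Nqo2 was at 2.02 ± 0.123 and 2.15 ± 0.0651 FPKM (adjusted p = 0.866) and Ripk1 at 1.24 ± 0.142 and 1.25 ± 0.106 (adjusted p = 0.992). Among 5 tested clade B serpins, Serpinb1a was at 2.59, 2.91, 2.91 and 2.97 FPKM with nicotine and 4.89, 3.95, 3.6 and 3.21 with water, without overlap but not called (log2 change -0.34, adjusted p = 0.395). Serpinb6b and Serpinb9 had log2 changes of -0.20 and -0.06 (adjusted p = 0.672 and 0.889).

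Serpinb6a and Gabra2 were also on a list of genes reported to vary between C57BL/6 substrains, Serpinb6a having been put there with its fall known. They were the 2 called genes of its 7 tested members, and the 2 that were lower at an unadjusted p under 0.05. Another 2 members (28.6%, against 4.85% of all genes) were higher at that p and not called. Their count was 1 without nicotine replicate 1 or water replicate 3 or 4. It was 0 without nicotine replicate 3 or 4 or water replicate 1 or 2. Nnt, which C57BL/6J mice carry with a deletion, was at 5.53 ± 0.685 FPKM with nicotine and 5.84 ± 0.47 with water (adjusted p = 0.885). Cyfip2 had a log2 change of -0.06. The part of genetic background in the result was not tested. Over the 3 tested genes on either side of each called gene, 96 neighbours in all, 0 were called. An unadjusted p under 0.05 was found for 12 of them (12.5%, against 8.69% of all genes). Beside Serpinb6a there was such a gene on each side, Serpinb1a among them, and both were lower with nicotine (log2 changes -0.343 and -0.208).

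The other called genes differed by less than 0.45 on the log2 scale. Rprm (gene 67874, chromosome 2, 54084093 to 54085552), a p53 target known as a marker of deep-layer neurons, was at 30.6, 32.6, 31.1 and 30.8 FPKM with nicotine and 40.4, 44, 43.3 and 38.1 with water. The highest nicotine library lay below the lowest water library, and Rprm fell by 0.39 (SE 0.05, adjusted p = 0.00375). Mex3b (gene 108797, chromosome 7, 82867333 to 82871576), an RNA-binding protein gene, was at 4.92, 5.4, 3.97 and 3.99 FPKM with nicotine and 6.19 to 6.93 with water, and fell by 0.44 (SE 0.08, adjusted p = 0.0421). Mex3b lost its call without nicotine replicate 1, 3 or 4 (adjusted p = 0.0537, 0.17 and 0.14), without water replicate 1, 2, 3 or 4 (0.0806, 0.0895, 0.143 and 0.142) with a replicate block (0.141), with the 8 wild-type libraries alone (0.0787), with adjustment over autosomal genes alone (0.0559), with no filter (0.123) and with no intensity trend (0.0616). Dpm3 (gene 68563, chromosome 3, 89257065 to 89267079), a subunit of the enzyme that makes dolichol phosphate mannose for glycosylation, was at 7.16, 7.86, 7.73 and 7.23 FPKM with nicotine and 9.17 to 10.4 with water. It fell by 0.31 (SE 0.05, adjusted p = 0.00935), and missed the threshold with limma voom on recovered reads (adjusted p = 0.209).

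Jsrp1 (gene 71912, chromosome 10, 80808494 to 80813741), known from the calcium release machinery of muscle, was at 4.28, 4.41, 3.78 and 4.29 FPKM with nicotine and 2.73 to 3.28 with water. It rose by 0.34 (SE 0.06, adjusted p = 0.0131). Without nicotine replicate 1, 2 or 4 its adjusted p was 0.0537, 0.0571 and 0.0507, and without water replicate 4 it was 0.0556. It was 0.0541 with a replicate block, 0.148 with limma voom and 0.0787 with the 8 wild-type libraries alone. D430019H16Rik (gene 268595, chromosome 12, 105453856 to 105493095), a gene without a given function, was at 25.4 to 28 FPKM with nicotine and 20.7 to 22.1 with water, and rose by 0.30 (SE 0.06, adjusted p = 0.0319). Its call was lost without nicotine replicate 1, 3 or 4 (adjusted p = 0.0779, 0.0879 and 0.124) without water replicate 1, 2, 3 or 4 (0.105, 0.0895, 0.0504 and 0.142), with no filter (0.0702) and with no intensity trend (0.0689).

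The 10 autosomal genes next in order of p had adjusted p from 0.0502 to 0.123 and were not called, 4 higher and 6 lower, all without overlap. Besides Dbp, the higher ones were Fcgr3, a microglial Fc receptor gene, at 6.78 ± 0.758 and 5.11 ± 0.473 FPKM, Kcnj10, which encodes the potassium channel Kir4.1 of astrocytes, at 41.2 ± 3.38 and 34.3 ± 1.25, and Rpap2, a phosphatase gene of RNA polymerase II, at 5.29 ± 0.0867 and 4.2 ± 0.344. Opalin, a membrane protein gene of oligodendrocytes, was at 19.7, 19.5, 15.3 and 13.7 FPKM with nicotine and 25.2, 29.4, 24.9 and 29.8 with water (log2 change -0.66, SE 0.13, adjusted p = 0.0506). Tob1, an antiproliferative gene, was at 13.4 ± 1.46 and 17.7 ± 1.27 FPKM (adjusted p = 0.0506), and Pde1a, a calmodulin-dependent phosphodiesterase gene, at 40.8 ± 1.5 and 48.3 ± 1.27 (adjusted p = 0.0994). Trmt10c, Kcns1 and Impa2 had log2 changes of -0.32, -0.26 and -0.30. Some of these passed when 1 library was left out. Tob1 did so without nicotine replicate 2 (adjusted p = 0.0219) or water replicate 1 (0.0383), Opalin without nicotine replicate 2 (0.0487), Fcgr3 without nicotine replicate 4 (0.0223) or water replicate 3 (0.0341), Kcnj10 without nicotine replicate 4 (0.0335), Rpap2 without water replicate 1 (0.0328) and Dbp without water replicate 3 (0.0345). Median-of-ratios rescaling, a filter at 5 FPKM and a filter on the 8 wild-type libraries each called Dbp, Tob1, Opalin and Fcgr3. Their adjusted p then ran from 0.0345 to 0.0495. With the 8 wild-type libraries alone Dbp (0.0192), Opalin (0.0309) and Pde1a (0.021) passed. With limma voom on recovered reads Dbp (0.0302) and Tob1 (0.0421) did so. Fcgr3 passed with a replicate block (0.0228) and with a pseudocount of 0.1 (0.0459).

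The receptors that nicotine binds did not pass the test. Of 16 nicotinic subunit genes 4 reached the filter. Chrna4 was at 13.2, 10.8, 11.7 and 13.8 FPKM with nicotine and 12.3, 11.6, 13.2 and 11.2 with water (log2 change 0.03, 95% interval -0.12 to 0.17, adjusted p = 0.947). Chrnb2, its usual partner, was at 12.6, 11.4, 12.4 and 13.3 FPKM against 12, 12.3, 13 and 13.3 (log2 change -0.03, 95% interval -0.13 to 0.08, adjusted p = 0.938). In both genes the 2 sets of libraries overlapped throughout. Chrna7, of the alpha7 receptor, was at 6.07 ± 0.54 and 6.32 ± 0.743 FPKM (log2 change -0.05, 95% interval -0.22 to 0.12). Chrna5, an accessory subunit, was at 0.928 ± 0.0588 and 0.801 ± 0.15 (log2 change 0.10, 95% interval -0.07 to 0.28). Of 10 genes for modulators and chaperones of these receptors and of 8 for muscarinic receptors and acetylcholine handling, 0 had an unadjusted p under 0.05. Ywhah, a 14-3-3 protein gene, and Vsnl1, a calcium sensor gene, were the most abundant modulators and had log2 changes of -0.01 and -0.05.

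Glucocorticoid-responsive genes and metallothioneins lay mostly higher. Of 21 tested, 0 were called, 8 (38.1%) were higher at an unadjusted p under 0.05 and 1 lower, and 19 had a higher mean, with a median log2 change of 0.148. Sgk1, a kinase gene induced by corticosteroids, was at 15.4, 19.7, 27.8 and 26.5 FPKM with nicotine and 13, 15.8, 13.7 and 17.1 with water (log2 change 0.53, SE 0.14, adjusted p = 0.227). Nicotine replicate 1 was the lowest of its group, and without it Sgk1 had an adjusted p of 0.0197. Mt2, a metal-binding protein gene, was at 85.5, 87.5, 82.5 and 67.7 FPKM against 61.4 to 67.3 (log2 change 0.32, adjusted p = 0.205, and 0.0335 without nicotine replicate 4). Cdkn1a, the cell cycle inhibitor p21, was at 8.39 ± 0.837 and 6.62 ± 0.725 FPKM (adjusted p = 0.195), and Fkbp5, a cochaperone of the glucocorticoid receptor, at 8.88 ± 0.624 and 7.66 ± 0.665 (adjusted p = 0.557). The lower member was Dusp1, given above. Without nicotine replicate 3 the count of higher members was 4, without water replicate 1 or 2 it was 4, and without water replicate 3 it was 5.

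Markers of the other cell types were also counted. The 20 astrocyte genes, 6 of them higher at an unadjusted p under 0.05, had a median log2 change of 0.0902, and Glul, the glutamine synthetase gene, was at 674 ± 37 and 613 ± 19.9 FPKM (adjusted p = 0.302). The astrocyte count depended on single libraries: it was 1 without nicotine replicate 1, 13 without nicotine replicate 4, 1 without water replicate 3 and 3 without water replicate 4. All 21 tested autosomal myelin genes had a lower mean with nicotine, 3 of them at an unadjusted p under 0.05, with a median of -0.0812 and summed levels of 904 to 993 against 952 to 1057.85 FPKM. Among them Trf, the transferrin gene, was at 109 ± 7.86 and 126 ± 4.96 FPKM (adjusted p = 0.454), while Mbp, which encodes myelin basic protein, had a log2 change of -0.05. Of 14 complement genes 3 were lower, C1ra, C4b and Serping1, by log2 changes of -0.22, -0.28 and -0.33 (adjusted p = 0.425, 0.438 and 0.493). That count was 1 without nicotine replicate 4 or without water replicate 3.

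Of 19 microglial genes 1 was higher and 0 lower at that p, of 28 excitatory neuron genes 1 and 3, of 23 inhibitory neuron genes 0 and 1, and of 14 oligodendrocyte precursor genes 1 and 0. These small counts moved with single libraries. The higher precursor count was 3 without nicotine replicate 1 and 2 without nicotine replicate 2 or water replicate 1 or 3, and the lower inhibitory count was 2 and 3 without nicotine replicates 1 and 2 in turn. The higher excitatory count was 0 or 2 in 6 such fits (0 without nicotine replicate 2 or 4 or water replicate 3, 2 without nicotine replicate 3 or water replicate 1 or 2). The higher microglial count was 2 without nicotine replicate 4 and 0 without nicotine replicate 1 or 2 or water replicate 1, 3 or 4, and 1 microglial gene was lower without nicotine replicate 1 or water replicate 1 or 3. Marker lists of tissue next to the cortex were also read. None of 14 striatal genes reached that p, and they summed to 193 to 330 FPKM with nicotine and 187 to 262 with water. Their mean log2(FPKM + 1) was 3.053, 3.225, 3.642 and 3.788 in nicotine replicates 1 to 4 and 3.084 to 3.499 with water. Without both nicotine replicates 1 and 2, a choice made after seeing the data, 6 striatal genes were higher at that p. Ttr, which choroid plexus makes, was at 0.824 to 1.86 FPKM with nicotine and 2.82 to 8.01 with water (adjusted p = 0.655), with the other defining choroid genes Kl and Folr1 under the filter. Choroid plexus genes summed to 56 to 59.7 FPKM with nicotine and 61.4 to 64.6 with water, without overlap. Most of these sums came from list members other than Ttr, and they are no measure of how much choroid plexus tissue was present. The 3 tested choroid plexus genes all had a lower mean, 0 of them at an unadjusted p under 0.05. That count was 2 with the 8 wild-type libraries alone and 1 without nicotine replicate 1 or water replicate 3. Summed blood cell genes ran from 77.3 to 231 FPKM with nicotine and 87.7 to 156 with water. The part of these cell types in the results was not tested.

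The same 16 genes were read in the double knockout, where smaller changes can follow from their choice by the wild-type result alone. Across all tested autosomal genes 20 (0.163%) were called in the DKO, and 13.9% had an unadjusted p under 0.05. Of the 16 genes called in wild type, 14 had the same sign in the DKO, 5 had an unadjusted p under 0.05 there and 2 were called, Jsrp1 and Bhlhe41. Jsrp1 was at 5.19, 5.22 and 5.51 FPKM with nicotine and 3.19 to 3.53 with water in the DKO, a rise of 0.52 (SE 0.06, adjusted p = 0.00269). Bhlhe41 was at 11.2, 11 and 11.2 FPKM against 8.13 to 8.98, a rise of 0.36 (SE 0.05, adjusted p = 0.0149). In both genes the DKO nicotine library without Y-linked transcripts, replicate 2, lay beside the others. Without that library 12 of the 16 had the same sign, 4 had an unadjusted p under 0.05 and 1 was called. The fit without it gave log2 changes of 0.53 for Jsrp1 (adjusted p = 0.0135) and 0.36 for Bhlhe41 (adjusted p = 0.0682). Gimap6 and Xdh had DKO log2 changes of 0.42 (adjusted p = 0.0634) and 0.34 (adjusted p = 0.0993).

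The difference between the genotypes was tested as an interaction. Of all tested autosomal genes 2 (0.0163%) passed, Serpinb6a and Gabra2, and 6.91% had an unadjusted p under 0.05 (2.8% with the larger log2 change in wild type, 4.11% with the smaller). It was under 0.05 for 12 of the 16 called genes, which were chosen by the wild-type change that the difference contains, so nothing is read from that share. Serpinb6a was at 15, 16 and 20.3 FPKM with nicotine in the DKO and 16.1 to 18.8 with water, near the wild-type water level, and its log2 change in wild type minus that in the DKO was -2.03 (SE 0.20, adjusted p = 0.00018). Gabra2 was at 10.8, 11.6 and 9.69 FPKM with nicotine in the DKO and 10.1 to 11.3 with water, near the wild-type nicotine level, with a difference of -0.95 (SE 0.15, adjusted p = 0.0407). The 4 wild-type water libraries were thus the high ones for Gabra2, and the 4 wild-type nicotine libraries the low ones for Serpinb6a. Without DKO nicotine replicate 2 the adjusted p was 0.000159 for Serpinb6a and 0.0642 for Gabra2. Gabra2 also missed the threshold without any one wild-type nicotine library (adjusted p = 0.108, 0.109, 0.114 and 0.114 for replicates 1 to 4). Klf4 was at 2.07, 2.24 and 2.53 FPKM with nicotine in the DKO and 2.02 to 2.74 with water, and the difference from wild type was 0.75 (SE 0.12, adjusted p = 0.0625). For Npas4 the difference was -0.75 (SE 0.18, adjusted p = 0.481) and for Klf2 0.57 (SE 0.16, adjusted p = 0.581).

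Most clock repressors also lay higher with nicotine in the DKO, where 8 of 11 members were higher at an unadjusted p under 0.05, against 8.65% of all genes, 1 was lower and 4 were called, all higher. Ciart rose there by 0.76 (SE 0.11, adjusted p = 0.0149), Per3 by 0.44 (SE 0.08, adjusted p = 0.0349) and Nr1d2 by 0.26 (SE 0.05, adjusted p = 0.0362), besides Bhlhe41. Without DKO nicotine replicate 2, the library lacking Y-linked transcripts, all 4 calls were lost, with log2 changes of 0.80 for Ciart (adjusted p = 0.0512), 0.44 for Per3 (0.101), 0.25 for Nr1d2 (0.116) and 0.36 for Bhlhe41 (0.0682). With all libraries none of these 4 had an interaction that passed the test (adjusted p = 0.657, 0.716, 0.812 and 0.926). Among 10 clock activators and outputs 4 were higher and 2 lower at an unadjusted p under 0.05 in the DKO. Dbp was the called one there, with a log2 change of 0.50 (SE 0.07, adjusted p = 0.0149). Without DKO nicotine replicate 2 Dbp kept its call (log2 change 0.55, adjusted p = 0.0137). Of the 33 endothelial members 3 were higher and 1 lower at an unadjusted p under 0.05 in the DKO. Of the 22 members of the Egr, Nr4a and Arc list 3 were likewise higher and 1 lower. The shares of all tested autosomal genes at that p in the DKO were 8.65% higher and 5.22% lower. Differences of these counts between the genotypes were not tested. Across all tested autosomal genes the log2 changes of the genotypes, which share no library, had a Pearson correlation of 0.224 and a Spearman correlation of 0.232, as a description over genes that are not independent.

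**Figure D4:**
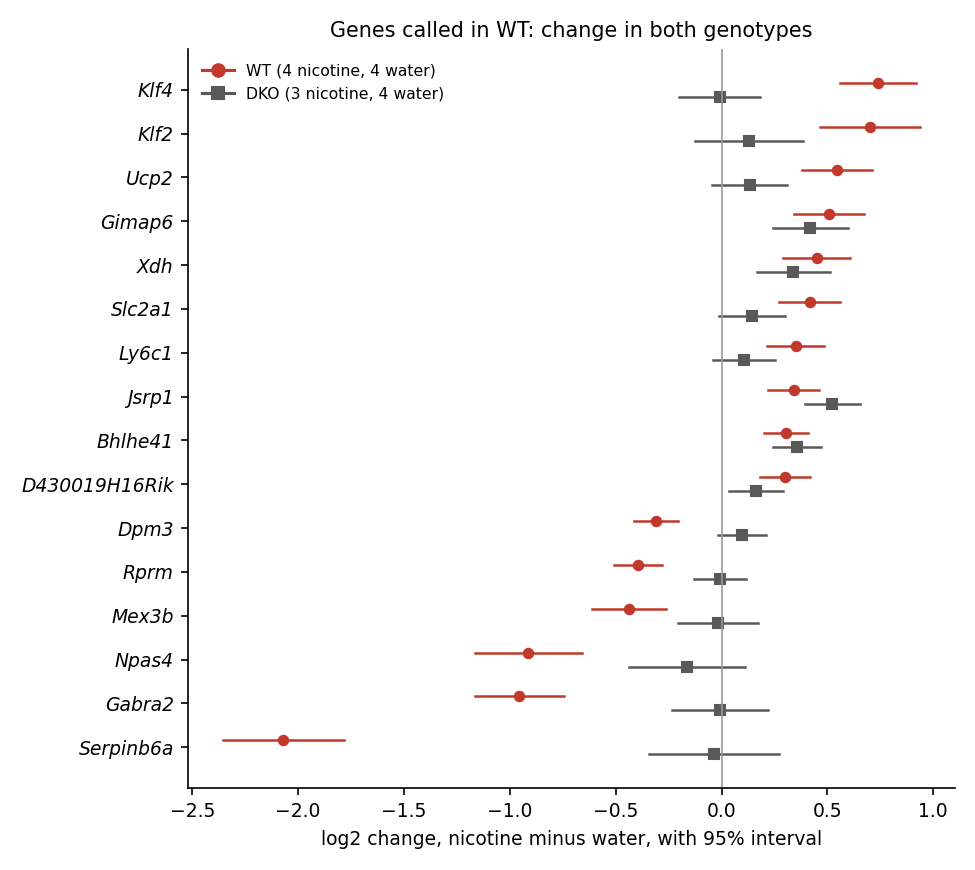
Points are log2 changes, nicotine minus water, with 95% intervals for the 16 genes called in wild type, in wild type (red circles) and in the double knockout (grey squares). Jsrp1, Bhlhe41, Gimap6, Xdh and D430019H16Rik have both intervals right of 0, while the DKO intervals of Klf4, Gabra2 and Serpinb6a are centred near 0.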

How the data were processed

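The authors deposited 1 table of FPKM values per library, on build GRCm38.p6 per the submitters' processing notes. RNA was extracted with TRIzol and made into stranded mRNA libraries, per the labels' protocols. Aligner, counter and any use of strand: not given in the sources used here, which leaves reads of overlapping and antisense genes impossible to tell apart. In 100% of tested genes the FPKM values were whole multiples of 1 read (tolerance 0.02 reads), which gave the reads per library, 16334904 to 19469215 over all 15.

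Values were fitted as log2(FPKM + 1) with limma 3.58.1 in R 4.3.3, with an intensity trend, 4 group terms and all 15 libraries, for the 12728 genes that reached 1 FPKM in 3 or more libraries, 423 of them X-linked, 4 Y-linked and 18 without a position. P-values were adjusted by Benjamini-Hochberg over all of them, and autosomal rows are reported. Counts of lists are of autosomal members. The names of 27 genes stored as dates were restored, and 21727 of 21878 gene numbers matched RefSeq. Promoters were read from RefSeq.

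The members and lists were chosen with earlier results of these data known. Named genes are all called autosomal genes, the next 10 by p, up to 4 members of each described list with the smallest p or the 2 most abundant, all tested nicotinic, Kruppel-like, GABA-A and clock repressor genes, and targeted and sex-linked genes. Cdh5, Cldn5, Flt1, Mbp and Pecam1 are the defining markers listed for their cell types. Arc, Bdnf, Cyfip2, Egr1, Fkbp5, Ly6a, Nnt, Nos3, Npas2, Nqo2, Ripk1, S1pr1 and Serpinb9 fell outside that rule and were chosen after their values were seen. Some genes that this rule covers are not reported here. The fit was tested on simulated data. Alternatives were another scaling, filters, a pseudocount of 0.1, no trend and adjustment over autosomal genes. Others were a replicate block, limma voom on recovered reads, wild-type libraries alone and leaving out each wild-type library in turn. Leaving out wild-type nicotine replicates 1 and 2 together, or DKO nicotine replicate 2, was chosen after seeing the data. No other DKO library was left out singly. Tables were made with Python 3.11.15 and pandas 2.3.3.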

Additional observations from a re-analysis of the deposited data

Results flagged for a closer look

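The log2 change from water to nicotine libraries differed between wild type and DKO by an interaction test for 2 of the genes named here. The difference was -2.03 for Serpinb6a (limma, adjusted p = 0.00018) and -0.948 for Gabra2 (adjusted p = 0.0407). In wild type that change cannot be told apart from whatever sets the Y-linked difference.

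In 20 of 236 groups of 4 libraries of the genes named here (8.47%), 1 library lay far from the other 3 for the size of the group. Chance gives about 1 in 20 such groups. Nicotine replicate 1 was low for Klf2, at 7.66 FPKM against 10.7 to 11.1, for Btg2, at 3.54 against 7.83 to 8.68, and for Ier2, at 3.9 against 6.48 to 6.68. It was also the lowest for Serpinb1a, at 2.59 against 2.91 to 2.97, and for Eif2s3x, at 25.8 against 26.2 to 26.3. Nicotine replicate 4 was low for Rorb, at 4.22 against 4.73 to 4.82, for Cdh5, at 3.68 against 4.69 to 4.84, and for Nnt, at 4.51 against 5.73 to 5.98. Nicotine replicate 3 was high for Irf9, at 3.52 against 2.76 to 2.83.

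Water replicate 3 was high for Gabra2, at 26.8 FPKM against 17.6 to 17.8, for Bhlhe41, at 9.6 against 8.13 to 8.33, for Cry2, at 47.9 against 42.4 to 42.8, and for Dpm3, at 10.4 against 9.17 to 9.3. The same library was low for Klf15, at 4.4 against 5.22 to 5.34, and for Serpinb6b, at 0.573 against 0.976 to 1.05. Water replicate 2 was low for Nr1d2, at 27.9 against 30.0 to 30.3, and high for Ttr, at 8.01 against 2.82 to 3.66, for Col1a1, at 2.33 against 1.61 to 1.7, and for Ripk1, at 1.41 against 1.18 to 1.21. Water replicate 4 was low for Ywhah, at 527 against 543 to 546. Without water replicate 3 the interaction of Gabra2 was -0.80 (adjusted p = 0.000266).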

How the results depend on the processing

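Over 20 alternative settings no named gene reversed a call. Of the 16 called genes, 8 kept their call wherever they were tested (Serpinb6a, Gabra2, Klf4, Klf2, Npas4, Rprm, Ucp2 and Slc2a1) and 8 lost it at least once. A filter at 5 FPKM left low genes such as Klf4 untested. Leaving out each wild-type library in turn gave 6 to 12 higher genes, against 10, and 5 to 8 lower, against 6; the 6 came without water replicate 4. Without DKO nicotine replicate 2 there were 11 higher and 9 lower. Whether replicate numbers pair the libraries could not be settled with 4 libraries a group. Deviations of same-numbered nicotine and water libraries correlated at -0.047 to 0.163, and 2 of 4 nicotine libraries correlated best with their own number. A replicate block gave 9 higher and 5 lower genes, 13 of them shared. The 2 calls of the interaction became 1 under median-of-ratios rescaling, no filter, no intensity trend, the replicate block, without nicotine replicates 1 and 2 and without DKO nicotine replicate 2, and ranged from 1 to 3 when each wild-type library was left out. Fewer libraries were fitted in the latter cases, and for the others the cause was not tested. Of 1720 recomputed list counts, 1508 stayed within 1.5 times. That figure includes the many counts of no members that stayed so. It does not measure how stable the larger counts were. The median tested gene stood on 584 reads per library, but Gimap6 on 38 to 83, where counting error is larger.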

Other observations

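Genes of metabolism, stress and signalling outside the groups above were also counted, and none of the list members below besides Slc2a1, which 2 of these lists hold, was called. Of 14 AMPA, NMDA and kainate receptor subunits 1 was higher at an unadjusted p under 0.05, Grik5, a kainate receptor subunit gene, at 67.8, 70.2, 69.7 and 71.1 FPKM with nicotine and 59.1 to 65.3 with water, without overlap (log2 change 0.18, limma adjusted p = 0.141). None of 7 metabotropic glutamate receptors reached that p. Of 20 hypoxia-responsive genes 16 had a higher mean and 3 (15%) were higher at that p, Slc2a1, Car12, a carbonic anhydrase gene, at 2.0 ± 0.246 and 1.43 ± 0.241 FPKM (SD, n = 4 each, adjusted p = 0.425), and Pfkfb3, a regulator of glycolysis, at 7.32 ± 0.586 and 6.48 ± 0.755 (adjusted p = 0.56). Of 28 genes of glucose transport and glycolysis 2 were higher and 1 lower; 1 was higher without nicotine replicate 3 or water replicate 1 or 2, and 0 were lower without nicotine replicate 1 or 4, water replicate 1 or 3, or with a replicate block.

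Of 47 oxidative phosphorylation subunits 38 had a lower mean with nicotine, with a median log2 change of -0.0243, and 1 had an unadjusted p under 0.05, Uqcrc1 of complex III, at 125 to 129 FPKM with nicotine and 136 to 139 with water (adjusted p = 0.302). That count was 4 without nicotine replicate 2, 2 without water replicate 2 or 3, and 6 without water replicate 4. Of 22 cholesterol genes 2 were lower at that p, among them Srebf2, the pathway's master regulator, at 47.4 ± 1.04 and 50 ± 1.08 FPKM (adjusted p = 0.491); the count was 0 without nicotine replicate 1 and 1 without water replicate 3. Of 24 interferon response genes 2 were higher and 1 lower, and Irf9, of the interferon-activated complex, was at 2.97 ± 0.369 and 2.33 ± 0.32 FPKM (adjusted p = 0.391). The higher count was 1 without nicotine replicate 1, without water replicate 2 or 4 and with a replicate block, and the lower count 0 without nicotine replicate 4 or water replicate 1. Of 20 unfolded protein response genes 2 (10%) were higher, among them Pdia4 (adjusted p = 0.511), and 17 had a higher mean. The count was 4 without nicotine replicate 2, 1 without nicotine replicate 4 or water replicate 1, and 0 without nicotine replicate 3 or water replicate 4. None of 20 heat shock genes reached that p. Of 14 meningeal genes 12 had a lower mean and 1 was lower at that p, Col1a1, a collagen gene, at 1.25 ± 0.314 and 1.81 ± 0.347 FPKM (adjusted p = 0.388).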
